A study of Homo sapiens with 24 samples.

Results

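Chromatin accessibility was compared between HEK293 cells overexpressing lamin B1 and HEK293 cells overexpressing eGFP, by ATAC-seq. HEK293 is an established human embryonic kidney cell line. The comparison takes 3 LMNB1 and 3 GFP libraries of the 24 in the series, assigned to their groups by their labels. It was itself chosen with earlier results of these data known. The other ATAC libraries, 3 from cells overexpressing lamin A (LMNA) and 3 from cells overexpressing lamin B2 (LMNB2), share the spread estimate of the fit, and the remaining 12 libraries are small RNA sequencing of the same 4 treatments. The labels call these libraries ATAC but also list total RNA as their molecule and a transcriptomic source, and the counts are read here as ATAC signal. All 4 groups are labelled as wild type in genotype, so no library comes from a knockout, and the label of the control is overexpression of eGFP, not untreated cells. The labels give neither a promoter, a vector nor an expression level for the overexpressed proteins, and nothing states that replicates are separate cultures, so the p-values measure the spread between these libraries.

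Lamin B1 is one of the B-type lamins, intermediate filament proteins that stay farnesylated and line the inner nuclear membrane. The lamina contacts large gene-poor, late-replicating domains of closed chromatin, and its composition differs between cell types. ATAC-seq uses a transposase that inserts adapters into open DNA, so that more fragments come from accessible sites and from DNA without nucleosomes, including mitochondrial DNA. The question of the comparison was which non-coding RNA loci are more or less accessible when lamin B1 is overexpressed.

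The deposited table counts ATAC fragments or reads over 175946 windows, each a catalogued non-coding RNA interval widened by 125 bp on both sides, and over flank windows of 500 bp, 5 kb and 50 kb that start 350 bp outside. Whether reads or fragments were counted is not given in the sources used here. Window totals were 156043245, 194096205 and 212225646 counts in the GFP libraries and 243188373, 280534726 and 233309828 in the LMNB1 libraries, so that every LMNB1 library was deeper than every GFP library. Levels are given as CPM, counts scaled to one common library size by the TMM factors of edgeR. The fit tested 163786 windows, and 5 of them passed an adjusted p under 0.05 (edgeR quasi-likelihood test with Benjamini-Hochberg adjustment), which is 0.00305% of the windows tested. Of these, 3 were higher with LMNB1 (0.00183%) and 2 lower (0.00122%). With total counts as the only scaling, which moves the median of all windows to 0.19, the split was 45 higher and 65 lower. The same 5 windows passed with each of the 12 libraries left out in turn, among 12 called without LMNB2 replicate 3. At an unadjusted p under 0.05 there were 7824 windows, 4.78%, of which 3700 were higher (2.26% of all tested) and 4124 lower (2.52%). The 3 LMNB1 libraries lay all above the 3 GFP libraries in 4.62% of windows and all below them in 3.84%, together 8.46%. The median log2 fold change was -0.0017, and percentiles 1 and 99 lay at -0.77 and 0.75. Among the 81893 windows at or above the median level, 12 differed by 1 or more on the log2 scale.

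All 3 windows that rose lie over the start of LMNB1 itself, the gene whose protein was overexpressed. LMNB1 spans chr5:126776623-126837020 in RefSeq on the build GRCh38, and LMNB1-DT, a long non-coding RNA that starts divergently from the same promoter region, runs the other way from chr5:126776486. To place the gain, the 250 bases before the downstream LMNB1 start (chr5:126776886-126777135, plus strand) and before the LMNB1-DT start (chr5:126776487-126776736, minus strand) are given from the RefSeq promoter table, 5′ to 3′. Capitals mark any match on either strand to the box CCAAT, to the GC box GGGCGG, to the E box CACGTG, to the palindrome TTACGTAA or to the box TATAAA. No match overlaps another.
LMNB1: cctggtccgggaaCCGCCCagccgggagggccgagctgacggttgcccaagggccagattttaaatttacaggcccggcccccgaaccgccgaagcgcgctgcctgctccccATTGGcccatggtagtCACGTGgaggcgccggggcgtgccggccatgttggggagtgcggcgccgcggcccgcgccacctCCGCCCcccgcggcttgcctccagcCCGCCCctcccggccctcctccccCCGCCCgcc
LMNB1-DT: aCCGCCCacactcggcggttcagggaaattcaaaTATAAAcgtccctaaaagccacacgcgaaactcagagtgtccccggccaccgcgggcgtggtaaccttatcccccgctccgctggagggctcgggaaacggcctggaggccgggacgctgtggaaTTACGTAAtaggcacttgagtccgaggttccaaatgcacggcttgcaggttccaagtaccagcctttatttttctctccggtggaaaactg
The LMNB1 stretch holds 4 GC boxes, 1 CCAAT and 1 E box, and the LMNB1-DT stretch holds 1 match to the GC box, 1 to TTACGTAA and 1 to the TATAAA box. Over the 35116 RefSeq promoters, 42.6% hold a GC box in the same 250 bases, 32.0% hold the CCAAT box, 6.34% the E box, 0.105% the palindrome TTACGTAA and 10.7% the TATAAA box. These matches describe the letters of the promoters only.

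Windows over the upstream part of these promoters stood at like levels in both groups. The LMNB1-DT interval chr5:126751948-126776943, whose widened window ends at base 126777068, covers the LMNB1-DT stretch and most of the LMNB1 stretch. It stood at 11.4, 10.7 and 10.5 CPM with GFP and 11.3, 11.4 and 10.6 CPM with LMNB1, a log2 fold change of 0.03 ± 0.06 (SE), with overlapping groups. The 500 bp window chr5:126776202-126776701, which covers the starts on the LMNB1-DT side, held 397, 371 and 451 counts in the GFP libraries and 594, 686 and 530 in the deeper LMNB1 libraries, a log2 ratio of the CPM means of -0.06. The LMNB1-DT interval chr5:126751938-126776694 stood at 6.66, 6.34 and 6.52 CPM with GFP and 7.02, 6.54 and 6.52 CPM with LMNB1, with a log2 fold change of 0.04 ± 0.07 (SE). Its GFP and LMNB1 values overlap too.

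Downstream of the promoters the counts rose steeply. The catalogued LMNB1-DT interval chr5:126777177-126778255 stood at 12.5, 8.39 and 11.1 CPM in the GFP libraries and at 9828, 12072 and 8697 CPM in the LMNB1 libraries, 958 times the GFP mean. The fitted log2 fold change of this interval was 9.90 ± 0.53 (SE; edgeR adjusted p = 0.00181). The interval chr5:126776224-126778255 rose by 9.19 ± 0.40, from 17.5 ± 2.42 to 10206 ± 1718 CPM (SD, n = 3 each), with an edgeR adjusted p of 0.000885. The interval chr5:126627727-126935934, catalogued as a signal recognition particle RNA match but spanning the whole gene, rose by 8.73 ± 0.35, from 59.9 ± 7.62 to 25356 ± 4063 CPM, with an edgeR adjusted p of 0.000832. The groups are far apart in all 3 windows. The first of these windows alone took 0.947 to 1.28% of all window counts in the LMNB1 libraries.

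The gain has a sharp edge. The 500 bp window chr5:126776987-126777486 takes in the end of the LMNB1 stretch printed above. It held 1856, 2689 and 2122 counts with LMNB1 and 720, 797 and 779 with GFP, or 8.22 ± 0.91 and 4.41 ± 0.35 CPM (SD, n = 3 each), so LMNB1 was higher there in all 3 libraries. Moving that window by 1 base, so that it takes in base 126777487, added 125, 169 and 130 counts in the LMNB1 libraries and at most 0 in the GFP libraries. The 500 bp window chr5:126777419-126777918 then held 2514436, 3582774 and 2208988 counts with LMNB1 against 928, 443 and 1148 with GFP. The next 5 kb window, chr5:126778731-126783730, was back at 505, 528 and 444 counts with LMNB1 and 320, 310 and 351 with GFP, or 1.83 ± 0.12 and 1.88 ± 0.12 CPM (SD, n = 3 each).

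Further blocks of gain lie inside the gene, with stretches between them that hold few counts in either group. Net counts of such stretches were taken as the difference of 2 overlapping 50 kb windows. The other ends of those windows differ as well, so a net count can be negative where the end given up holds more than the stretch gained. The 500 bp block at the start held 39.8 to 40.5% of the LMNB1 libraries' counts in the widest window. The stretch chr5:126800387-126805917 held 10.8 to 11.7%, chr5:126809731-126823731 held 41.4 to 41.6% and chr5:126823732-126826986 held 4.48 to 4.55%. For the last of these the GFP libraries had net counts of -852, -883 and -951, since the end given up takes in the LMNB1-DT promoter. Between them, chr5:126805918-126809730 gained a net 30, 25 and 15 counts in the LMNB1 libraries and 47, 30 and 46 in the GFP libraries. Beyond the gene, the 50 kb window chr5:126848373-126898372 stood at 10.6 ± 0.69 CPM with LMNB1 and 9.84 ± 0.71 CPM with GFP. Upstream of the gene, the 50 kb window chr5:126701463-126751462 stood at 5.56 ± 0.24 CPM with LMNB1 and 5.30 ± 0.26 CPM with GFP (SD, n = 3 each). In these files, counts from the chromosomal LMNB1 gene and from an introduced LMNB1 copy cannot be told apart.

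**Figure D1:**
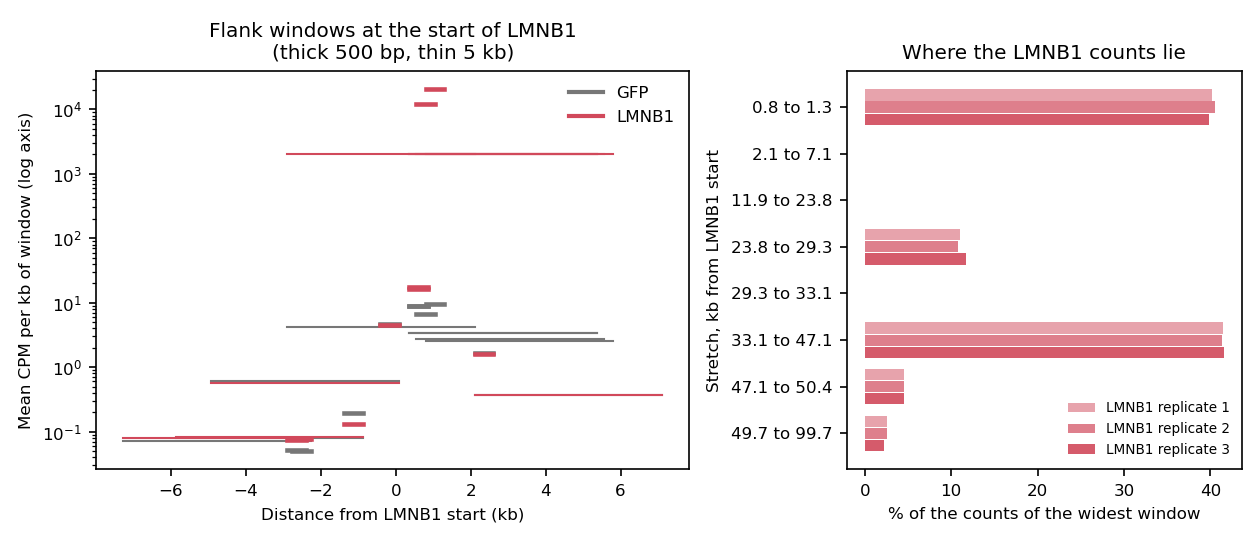
Left, mean CPM per kb (log axis) of the 500 bp (thick) and 5 kb (thin) flank windows against their distance in kb from the LMNB1 start, for the 3 GFP and 3 LMNB1 libraries. Right, share of the widest window's counts in each stretch for each LMNB1 library; the first block and the stretch from 33.1 to 47.1 kb hold about equal shares, 39.8 to 40.5% and 41.4 to 41.6%, and the last 2 stretches overlap slightly.

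The small RNA libraries also rose over these intervals. The interval chr5:126777177-126778255 stood at 0.0812 ± 0.0260 small RNA CPM with GFP and 18.2 ± 0.93 CPM with LMNB1 (SD, n = 3 each), a log2 fold change of 7.60 ± 0.27 (SE, edgeR adjusted p = 1.54e-11). The interval carries the LMNB1-DT name, but it lies wholly within LMNB1. How the counting treated strand is not given, so reads of LMNB1-DT and of LMNB1 cannot be told apart there.

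Both windows that fell belong to lnc-SLC12A7-1, a catalogued long non-coding RNA between NKD2, which encodes an inhibitor of Wnt signalling and ends at chr5:1038943, and SLC12A7, which encodes a potassium-chloride cotransporter and spans chr5:1050384-1155899. The interval chr5:1040718-1048337 stood at 2.52, 2.05 and 2.45 CPM in the GFP libraries and at 1.13, 1.19 and 1.09 CPM in the LMNB1 libraries. The LMNB1 libraries were all below the GFP libraries, and the log2 fold change was -1.04 ± 0.14 (SE, edgeR adjusted p = 0.0013). The overlapping interval chr5:1040969-1050333 stood at 2.95, 2.50 and 2.97 CPM with GFP and 1.50, 1.69 and 1.39 CPM with LMNB1, a log2 fold change of -0.87 ± 0.12 (edgeR adjusted p = 0.00152). Small RNA counts over them were too few to test, 8 and 10 in all over the 6 libraries.

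The 29 windows that overlap the stretch between the genes, under the names lnc-SLC12A7-1, lnc-NKD2-1 and lnc-NKD2-3, share most of their sequence and counts. All 29 had lower means with LMNB1, with a median log2 fold change of -1.24 and a range of -1.67 to -0.82. In 27 of them the LMNB1 libraries were all below the GFP libraries, against 3.84% of all windows. An unadjusted p under 0.05 was reached by 25, against 2.52% of all windows in that direction, but only the 2 above passed adjustment. The 500 bp flanks of 11 and the 5 kb flanks of 17 intervals at this place were called lower, and none of the 29 intervals had called 50 kb flanks. The 11 calls at 500 bp became 4, 4 and 1 without GFP replicates 1, 2 and 3, and 3, 2 and 0 without LMNB1 replicates 1, 2 and 3. The 17 calls at 5 kb became 9 without GFP replicate 3 and 11 to 18 without any other single GFP or LMNB1 library. At finer scale, the 39 flank windows of 500 bp that lie wholly within the called interval chr5:1040718-1048337 had a median of 0.196 CPM with GFP and 0.0879 CPM with LMNB1, and a median log2 ratio of -1.15 with a range of -1.89 to -0.06. All 39 were lower in the mean with LMNB1, and in 20 of them the LMNB1 libraries were all below the GFP libraries. The 9 windows before the interval had a median log2 ratio of -0.14 and the 13 after it -0.36. These windows overlap one another, and their outer ends are those of the called interval itself, so the lower level within it follows from the call.

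The other 2 lamin groups differed from each other over this interval. The interval chr5:1040718-1048337 averaged 2.32 CPM with LMNA and 1.01 CPM with LMNB2. The log2 difference of LMNB1 from LMNA was -1.02 ± 0.14 (SE, edgeR adjusted p = 0.00109), and that from LMNB2 was 0.18 ± 0.14 (edgeR adjusted p = 0.975), which does not show that the B-type lamins act alike. LMNB2 had itself a log2 fold change of -1.22 ± 0.14 against GFP (edgeR adjusted p = 0.000162), a comparison that shares its GFP libraries with the one for LMNB1. Over all windows, LMNB2 against GFP gave 4 calls (0.00244%) and LMNA against GFP 1 (0.000611%).

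**Figure D2:**
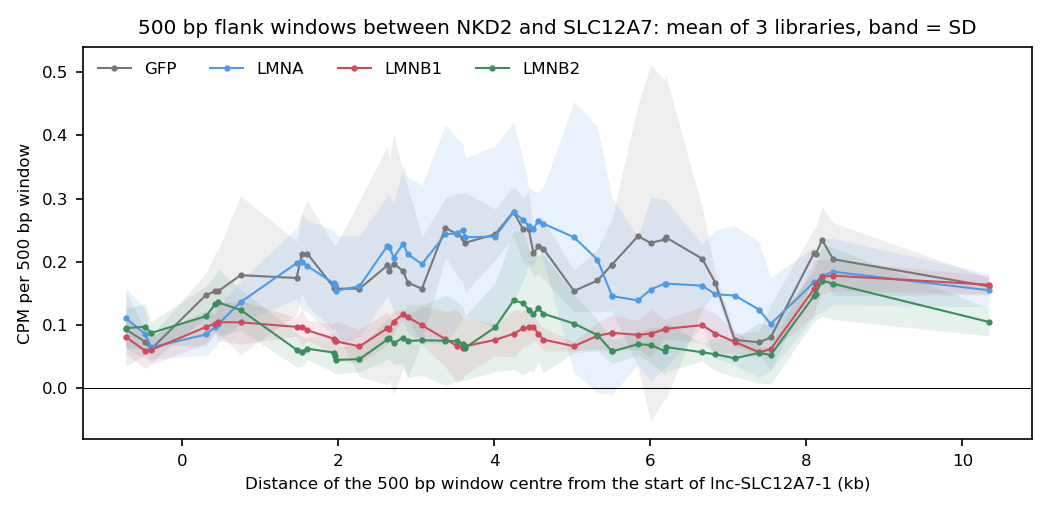
Mean CPM of 500 bp flank windows (y axis) against the distance in kb of their centre from the start of lnc-SLC12A7-1 (x axis), with 1 SD of 3 libraries as a band, for GFP, LMNA, LMNB1 and LMNB2. GFP and LMNA run above LMNB1 and LMNB2 across the middle of the stretch, with medians within the called interval of 0.196 and 0.198 against 0.0879 and 0.0745 CPM.

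Mitochondrial windows took a smaller share of the window counts in the LMNB1 libraries than in the GFP libraries. Of the feature window counts, 39.9, 47.5 and 47.0% lay on the mitochondrial chromosome with GFP and 33.9, 32.8 and 34.1% with LMNB1. The groups do not overlap, with means of 44.8 ± 4.24% and 33.6 ± 0.69% (SD, n = 3 each). The exact two-sided permutation test gave p = 0.1, the smallest that 3 against 3 allows. The share was lower still in the LMNB2 libraries, at 25.2, 30.7 and 24.5%, and stood at 39.4, 44.1 and 39.8% in the LMNA libraries. Mitochondrial windows overlap one another, so this is a share of window counts, not of the library. All 46 mitochondrial windows, among them both ribosomal RNAs and the transfer RNAs of the heavy and light strands, had LMNB1 values below every GFP value, beside 3.84% of all windows. Their log2 fold changes lay between -0.68 and -0.60, with a median of -0.62. MT-RNR1, the 12S ribosomal RNA gene, had -0.61 ± 0.14 (SE, unadjusted p = 0.0027 by edgeR). None of the 46 passed adjustment in the main test, the lowest edgeR adjusted p being 0.978, although 41 were called lower by DESeq2. DESeq2 gave an adjusted p to only 8190 of the 163786 windows and called 62, 59 of them lower, so its adjustment covers fewer windows. Against the same GFP libraries, the median log2 fold change of the 46 was -0.86 for LMNB2 and -0.23 for LMNA.

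Nuclear copies of mitochondrial sequence had lower values as well, and none of their feature windows passed adjustment (lowest edgeR adjusted p = 0.978). The pseudogene block at chr1:629062-634922, which includes MTND1P23, MTND2P28, MTCO1P12 and MTCO3P12, held 22 windows with a median log2 fold change of -0.58. In all 22 the LMNB1 libraries were all below the GFP libraries, beside 3.84% of all windows. Against GFP, the median of this block was -0.82 for LMNB2 and -0.15 for LMNA. Over all tested windows under 5 kb that touch a RefSeq pseudogene of a mitochondrial protein gene or humanin-like MTRNR2L gene, a set drawn after values were seen, the 20 with at least 100 CPM had a median of -0.57 and were all below GFP. All but 1 of these 20 are windows of the chromosome 1 block and overlap one another, so the sets are nearly the same. The other 330, under 100 CPM, had a median of -0.18, and 16.7% were all below GFP, beside 3.84% of all windows. In the flank windows, 27 of the 500 bp flanks called lower lie at 4 such loci, on chromosomes 1, 5, 11 and 17, and the 500 bp flanks of all 46 mitochondrial intervals were called lower. None of those 46 was called without GFP replicate 2, GFP replicate 3 or any 1 of the LMNB1 replicates, nor with only the 6 libraries compared. None of the 27 at the nuclear copies was called without GFP replicate 2, LMNB1 replicate 1 or LMNB1 replicate 2. The same held with only the 6 libraries compared, and in these 4 settings all lower calls lay at lnc-SLC12A7-1. Read mapping between mitochondrial DNA and its nuclear copies was not tested. Library scaling outside the mitochondrial chromosome left the same 5 windows called.

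**Figure D3:**
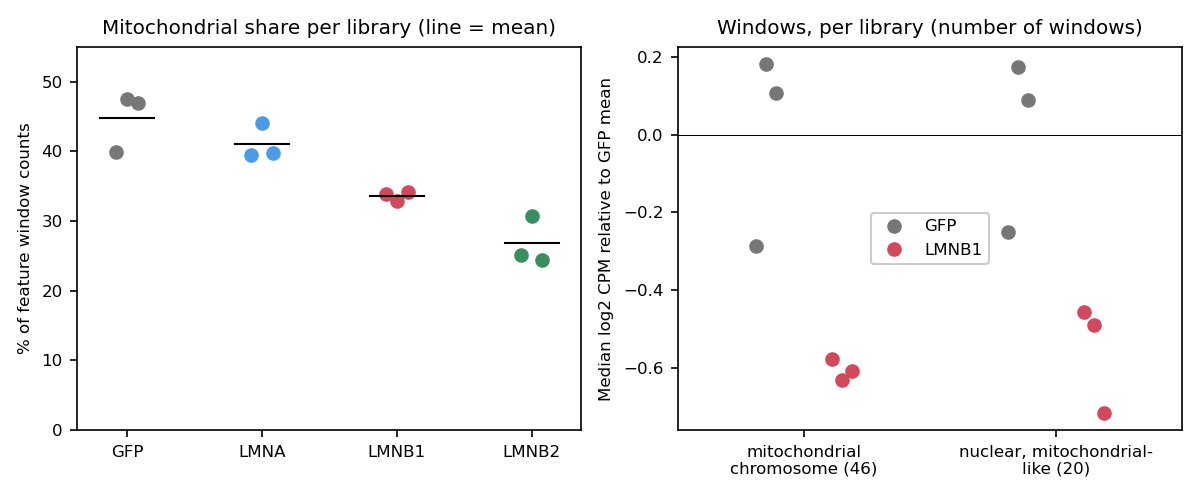
Left, share of feature window counts on the mitochondrial chromosome in each of the 12 ATAC libraries (y axis, %), with the group mean as a line. Right, median log2 CPM relative to the GFP mean for the 46 mitochondrial windows and the 20 nuclear windows of at least 100 CPM, per library; all LMNB1 points lie below all GFP points in both.

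In the flank windows, 0.0628% of the 162320 tested 500 bp flanks, 0.0245% of the 175313 tested 5 kb flanks and 0.0176% of the 175805 tested 50 kb flanks passed an edgeR adjusted p under 0.05. At 500 bp, 14 were higher (0.00862%) and 88 lower (0.0542%). At 5 kb, 6 were higher (0.00342%) and 37 lower (0.0211%). At 50 kb, 16 were higher (0.0091%) and 15 lower (0.00853%). With total counts as the only scaling, nearly all calls were higher at 500 bp (1466 against 4) and 5 kb (96548 against 4), and lower at 50 kb (27223 against 17). The LMNB1 locus gave 5, all 6 and all 16 of the higher calls at the 3 sizes, and the flanks of those neighbouring intervals overlap one another. Leaving aside LMNB1, the lnc-SLC12A7-1 place, the mitochondrial chromosome and its nuclear copies, 13 flanks remained at 500 bp, 2 at 5 kb and 1 at 50 kb. Among them, lnc-NRARP-3, an interval inside EXD3 on chromosome 9, was the only name called at more than 1 size, with -0.74 ± 0.17 at 500 bp (edgeR adjusted p = 0.0376) and -0.45 ± 0.10 at 5 kb (edgeR adjusted p = 0.0217). Without GFP replicate 2, all flanks called lower at 500 bp and 5 kb lay at lnc-SLC12A7-1, and lnc-NRARP-3 was called at neither size. Its 500 bp call was also lost without LMNB1 replicate 1 or 2 and with only the 6 libraries compared. The 500 bp flanks of HSALNG0040156, on chromosome 5, rose by 1.32 ± 0.27, from 0.115 ± 0.024 to 0.294 ± 0.073 CPM (SD, n = 3 each, edgeR adjusted p = 0.0141). Those of LINC01747, on chromosome 20, rose by 0.79 ± 0.18 (edgeR adjusted p = 0.0355), together with 2 overlapping intervals of ENSG00000230400.3. The 50 kb flanks of lnc-SLC25A32-5, on chromosome 8, fell by 0.26 on the log2 scale, from 10.5 ± 0.16 to 8.81 ± 0.18 CPM (edgeR adjusted p = 0.0346). They were not called without GFP replicate 2 or without LMNB1 replicate 2, where all 50 kb calls were higher.
The count at 500 bp rests on single libraries: it fell from 102 to 14 without GFP replicate 2, to 31 without GFP replicate 3, and to 10, 6 and 8 without LMNB1 replicates 1, 2 and 3. At 5 kb it was 161 without GFP replicate 1 and 18 without GFP replicate 2, and at 50 kb it was 16 without GFP replicate 2 or LMNB1 replicate 2.

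Beyond the 5 called windows, the 15 windows of at least median level with the lowest p, 7 higher and 8 lower, did not pass adjustment, each with an edgeR adjusted p of 0.978. Their selection for separated groups fixes that the groups do not overlap. The feature window of lnc-NRARP-3, chr9:137329451-137331692, stood at 1.53, 1.55 and 1.88 CPM with GFP and at 0.988, 0.973 and 1.21 CPM with LMNB1, a log2 fold change of -0.65 ± 0.14. The interval of lnc-DBNDD1-1, chr16:89994673-89996595, stood at 3.45, 3.87 and 3.70 CPM with GFP and at 2.79, 2.91 and 2.54 CPM with LMNB1, a log2 fold change of -0.42 ± 0.09. The interval of lnc-SLC25A32-3, chr8:103498167-103499580, had -0.43 ± 0.10. It lies within the called 50 kb flanks of lnc-SLC25A32-5, chr8:103513821-103514900, so both values rest partly on the same counts. A tRNA-like interval, chr5:100048891-100049009, had -0.82 ± 0.20, and lnc-CTAGE5-10, lnc-CCDC93-6, lnc-AVL9-6 and HSALNG0128932 had between -0.42 and -0.32.

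On the higher side, lnc-TM2D3-2, chr15:101500331-101501760, stood at 0.821, 0.645 and 0.867 CPM with GFP and at 1.20, 1.17 and 1.08 CPM with LMNB1, a log2 fold change of 0.55 ± 0.13. The interval of lnc-RBM25-1, chr14:73124540-73126388, stood at 1.01, 0.962 and 1.00 CPM with GFP and at 1.47, 1.51 and 1.29 CPM with LMNB1, a log2 fold change of 0.52 ± 0.11. Both were also at that higher level in the LMNA group, at 1.21 and 1.37 CPM, and in the LMNB2 group, at 1.11 and 1.31 CPM. HSALNG0129957, LINC01429, lnc-C6orf201-19 and LINC01500 had between 0.18 and 0.47.

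**Figure D4:**
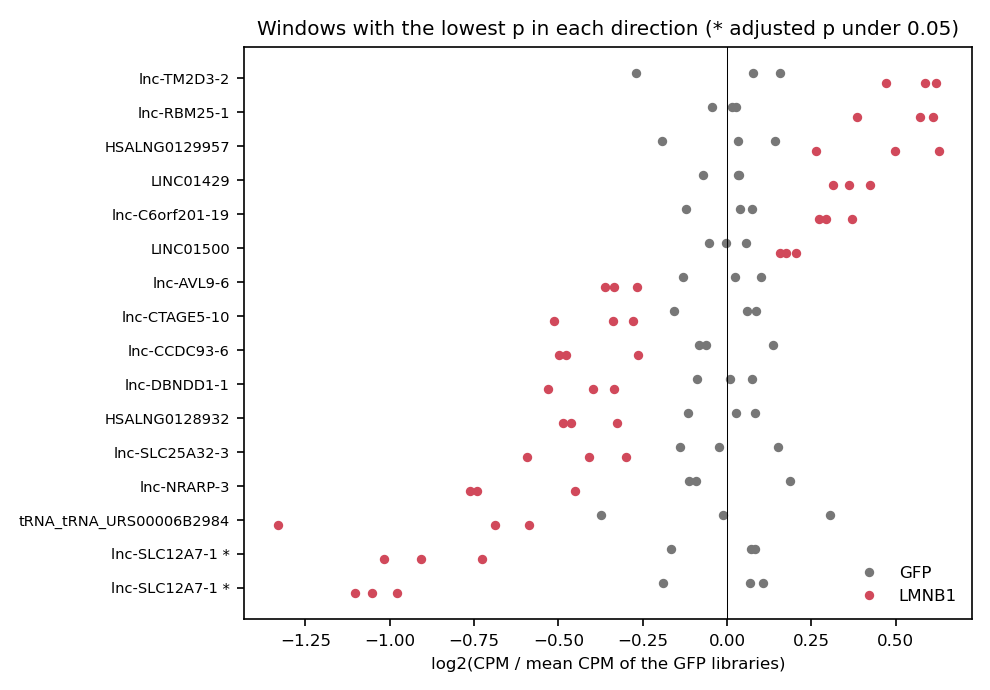
log2 of each library's CPM over the GFP mean (x axis) for the 2 called lnc-SLC12A7-1 windows and the uncalled windows with the lowest p that are named in the text (y axis), with 3 GFP and 3 LMNB1 points each. The uncalled windows were picked for groups that do not overlap, so the separation of the points is set by the choice, and their log2 fold changes run from -0.82 to 0.55.

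Genes of RNA polymerase III, the enzyme of transfer RNA genes and of the 5S ribosomal RNA genes, gave no call. Of 482 tested transfer RNA windows, 292 had higher and 190 lower fitted values with LMNB1, the median log2 fold change was 0.03, and 9 were higher and 2 lower at an unadjusted p under 0.05, or 2.28% beside 4.78% of all windows. The member with the lowest p, tRNA-Gly-CCC-4-1, stood at 2.55, 2.32 and 1.97 CPM with GFP and at 3.07, 3.05 and 2.45 CPM with LMNB1, a log2 fold change of 0.33 ± 0.11 that overlaps between groups. The 17 5S ribosomal RNA windows had a median of 0.00 and the 174 dispersed 5S-like copies -0.05. The 38 SNAR windows, small RNAs bound by NF90 with near-identical copies that counting cannot separate, had a median of 0.07. At an unadjusted p under 0.05, 4 were higher and none lower. That is 10.5%, beside 4.78% of all windows in either direction and 2.26% higher. The groups were separate in 1 of the 38, 2.63% beside 8.46% of all windows.

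The single-copy polymerase III genes were as close. RN7SK, the RNA that holds the elongation factor P-TEFb inactive, stood at 10.6, 8.88 and 8.42 CPM with GFP and at 10.0, 9.07 and 9.04 CPM with LMNB1, a log2 fold change of 0.01 ± 0.09. RPPH1, the RNA of RNase P, had -0.02 ± 0.08, and RMRP, the RNA of RNase MRP, 0.06 ± 0.09. RN7SL1 and RN7SL2, the signal recognition particle RNAs, had 0.02 and 0.07. Vault RNA windows ran from 0.02 for VTRNA2-1 to 0.07 for VTRNA1-1, with VTRNA1-2 at 0.06 and VTRNA1-3 at 0.03. BCYRN1 had -0.05 and RNU6ATAC -0.02. The Y RNA windows were spread most: RNY1 had 0.24 ± 0.15, RNY3 -0.18, RNY4 -0.13 and RNY5 -0.28 ± 0.16. RNY5 stood at 0.751, 0.762 and 0.810 CPM with GFP and at 0.727, 0.670 and 0.508 CPM with LMNB1. It was the only 1 of these 15 windows whose groups do not overlap, beside 8.46% of all windows. Over these 15 windows 9 fold changes were positive and 6 negative, and the lowest unadjusted p was 0.0821 (edgeR). Several of these signs change when one library is left out.

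Genes of the spliceosomal RNAs made by RNA polymerase II had a median of 0.08 over 39 windows, 37 of them above 0 beside 49.5% of all windows. RNU2-1, the U2 RNA gene, stood between 9.30 and 11.8 CPM with GFP and between 10.5 and 12.6 CPM with LMNB1, a log2 fold change of 0.17 ± 0.08 with overlapping groups. The 39 windows carry 23 names, and whether near-identical copies among them share reads cannot be judged here. Box C/D snoRNAs, which guide 2′-O-methylation, had a median of 0.09 over the 202 windows tested of 383 listed. Their levels were low, with a median of 0.0860 CPM with GFP and 0.0979 CPM with LMNB1. At an unadjusted p under 0.05, 9 were higher and 3 lower, 5.94% beside 4.78% of all windows. Box H/ACA snoRNAs, which guide pseudouridylation, had 0.04 over 151 and the Cajal body RNAs -0.05 over 23. The lncRNA hosts of snoRNAs had 0.02 over 396. None of these windows passed adjustment.

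MicroRNA windows, 2569 tested, had a median of 0.01, with 70 higher and 70 lower at an unadjusted p under 0.05, 5.45% beside 4.78% of all windows. The interval of MIR423 and MIR3184 stood at 1.31, 1.47 and 1.27 CPM with GFP and at 1.06, 1.02 and 0.960 CPM with LMNB1, a log2 fold change of -0.41 ± 0.13. MicroRNAs known from HEK293 cells, such as MIR17HG (-0.12 ± 0.10), were read as a check of the cell type. Their 28 tested windows had a median level of 1.55 CPM with GFP and 1.57 CPM with LMNB1, while the 25 windows of microRNAs known from other cell types had 0.0662 and 0.0633 CPM. These levels are not per length. The log2 ratio of density in the window to that in its 50 kb flanks, which is, was 1.16 ± 0.06 with GFP and 1.16 ± 0.17 with LMNB1 for the first list and 0.63 ± 0.23 and 0.53 ± 0.10 for the second (SD, n = 3 each).

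The lncRNA lists had medians close to 0 and no call outside LMNB1-DT. The 772 windows of divergent lncRNAs had a median of 0.01, and the 2 calls among them are LMNB1-DT, already described. LINC intervals (10552 tested) had a median of -0.01 and antisense lncRNAs (8942 tested) 0.00. In the 150 HOX lncRNA windows, which lie in clusters kept silent by Polycomb proteins in many cells, none was higher and 8 were lower at an unadjusted p under 0.05. That is 5.33%, beside 4.78% of all windows in either direction and 2.52% lower. The LMNB1 libraries were all below GFP in 1 of the 150 and all above in 3, together 2.67% beside 8.46% of all windows. These windows carry only 18 names and overlap one another. HOTAIRM1 stood at 6.19, 6.52 and 5.63 CPM with GFP and at 5.49, 5.37 and 5.21 CPM with LMNB1, a log2 fold change of -0.19 ± 0.07. The 150 lncRNA windows of imprinted regions, under 12 names, had 7 higher and 7 lower at an unadjusted p under 0.05, 9.33% beside 4.78% of all windows. The groups were separate in 14% of them beside 8.46% of all windows, the median was 0.01, and GNAS-AS1 had 0.20 ± 0.08. NEAT1, the scaffold of paraspeckles, ran from -0.03 to 0.09 over its 30 windows and MALAT1, a nuclear speckle RNA, from -0.19 to 0.26 over its 39.

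**Figure D5:**
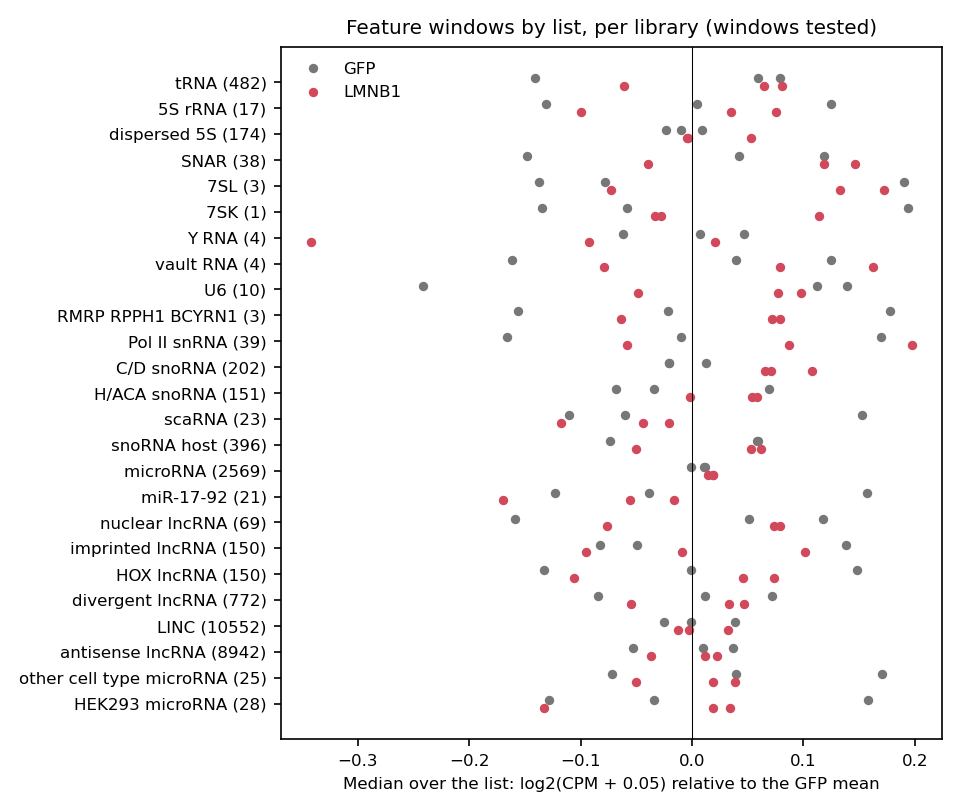
Median over each list of log2(CPM + 0.05) relative to the GFP mean (x axis) for each GFP and LMNB1 library, with the number of windows tested beside each list name (y axis). All LMNB1 points lie above all GFP points in 2 of the 25 lists, the C/D snoRNAs and the microRNAs, whose median log2 fold changes were 0.09 and 0.01, and the points overlap in the other lists. Levels in both of these lists were low, with medians of 0.0860 and 0.112 CPM with GFP.

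The balance of signal between windows and their surroundings differed by less than the spread between replicates. The median log2 ratio of density in a window to density in its 50 kb flanks was -0.066, -0.055 and -0.017 in the GFP libraries and -0.078, -0.069 and -0.027 in the LMNB1 libraries. Means were -0.046 ± 0.025 and -0.058 ± 0.027 (SD, n = 3 each), an exact permutation p of 0.5. Replicate 3 of each group had the highest ratio. Each LMNB1 library lay below the GFP library of the same number, and with 500 bp flanks each lay above it. The permutation test does not use the replicate numbers, so it does not measure such a shift. By chromosome, medians of the log2 fold change outside the mitochondrial chromosome ran from -0.07 on Y and -0.03 on 18 to 0.04 on 17 and 22. Only on chromosomes 17 and 22 did the per-library medians of the 2 groups not overlap, with LMNB1 means of 0.041 ± 0.013 and 0.046 ± 0.002 relative to GFP.

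Against the other lamins, the 3 LMNB1 windows were again the only ones higher in LMNB1: by 8.05 to 8.74 on the log2 scale against LMNA and by 8.29 to 9.16 against LMNB2. Against LMNB2, 5 windows were called in all (0.00305%), the other 2 being lower and lying at lnc-GADD45B-1 and lnc-TIMM13-1 on chromosome 19. Against LMNA, 365 windows were called (0.223%), 362 of them lower in LMNB1, with a median log2 fold change of -0.49. Those 362 had a median width of 166952 bp, beside 5296 bp for all windows tested. In the comparison with GFP the same 362 had a median log2 fold change of -0.16, and 2 of them, the lnc-SLC12A7-1 windows, were called.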

How the data were processed

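ATAC-seq was run on 12 libraries of HEK293 cells, 3 each overexpressing eGFP, lamin A, lamin B1 or lamin B2. The authors deposited whole-number counts per window, not normalized, on GRCh38 per the submitters' processing notes. The aligner, duplicate handling, mitochondrial filtering and counting tool are not given in the sources used here, so multi-mapping between near-identical loci cannot be judged. The small RNA table is likewise deposited as counts and serves only beside the ATAC values.

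From the counts, windows were kept by filterByExpr in edgeR 4.0.16 (R 4.3.3), scaled by TMM and fitted with 4 group means over all 12 ATAC libraries, by the robust quasi-likelihood test with Benjamini-Hochberg adjustment over all windows tested. log2 fold changes use a prior count of 2. Flanks of one interval were summed. CPM divides by the TMM-scaled library size of the feature windows. Density ratios add 1 count. The scripts were tested on simulated data. DESeq2 1.42.0 was an alternative. Library shares and densities were compared by exact two-sided permutation tests (scipy 1.17.1). Promoters come from RefSeq GRCh38.p14.

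Named windows are those overlapping LMNB1, every called window, the lowest-p separated windows of at least median level to make 10 in each direction, a list of single-copy polymerase III genes, MALAT1, NEAT1, and the lowest-p member of each of 25 gene lists. The comparison, the lists and the rule were chosen with earlier results of these data known. Window totals ran from 156043245 to 290158229 counts. Between replicates the chi-square per degree of freedom, averaged over the windows tested, was 4.55 to 20.7, above what counting alone gives. Windows with very high counts can weigh most in that average. It therefore does not show whether depth or the spread between libraries limits windows with few counts. Of the windows chosen by the rule, 1 is not reported here.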

Additional observations from a re-analysis of the deposited data

Results flagged for a closer look

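The difference between the LMNB1 and LMNA groups was itself called at all 5 windows that passed against GFP: -1.02 and -0.80 on the log2 scale at the lnc-SLC12A7-1 intervals chr5:1040718-1048337 and chr5:1040969-1050333, and 8.05, 8.38 and 8.74 at the 3 windows over LMNB1. Against LMNB2 the 3 LMNB1 windows differed by 8.29, 8.70 and 9.16, and the lnc-SLC12A7-1 windows were not called.

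The LMNB1-DT interval chr5:126777177-126778255 carried more signal than any GFP library, 8.39 to 12.5 CPM, in all 6 libraries that overexpress another lamin. The values were 13.9, 36.9 and 20.7 CPM in LMNA replicates 1, 2 and 3 and 14.2, 15.1 and 24.1 CPM in LMNB2 replicates 1, 2 and 3. Against GFP, neither group passed adjustment there: the log2 fold change was 1.16 for LMNA and 0.74 for LMNB2 (edgeR unadjusted p = 0.015 and 0.0835).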

How the results depend on the processing

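The 5 calls against GFP stayed the same 5 with DESeq2 size factors, scaling outside the mitochondrial chromosome, either other count filter and an adjusted p under 0.01, and 4 of them passed with a log2 fold change of at least 1. The count was 110 with total counts only, 45 higher and 65 lower, which moves the median of all windows to 0.19, 19 with only the libraries compared (16 of them at the lnc-SLC12A7-1 place), 18 with the 50 kb flanks as an offset (16 of them at LMNB1, where the flanks hold the gain) and 1 with lncRNA intervals left out. DESeq2 called 62, 3 higher and 59 lower, 41 of them mitochondrial. It gave an adjusted p to 8190 windows only, and none to the lnc-SLC12A7-1 windows. Leaving out single libraries gave 5 to 12, the 12 without LMNB2 replicate 3.

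Flank counts at 500 bp, 5 kb and 50 kb were 1470, 96552 and 27240 with total counts only, where the median of all flanks lies at 0.32, 0.41 and -0.11. The higher and lower calls were then 1466 and 4, 96548 and 4, and 17 and 27223. They were 16, 22 and 17 with only the libraries compared, and ranged from 6 to 99, 18 to 161 and 16 to 45 with 1 library left out.

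Replicate numbers are shared between groups, and whether they pair the samples is not settled. Deviations from the group means correlated at 0.53, 0.09 and 0.66 for the same numbers. Between replicates 1 and 3 of the 2 groups they correlated at -0.61 and -0.56. LMNB1 replicate 2 correlated more with GFP replicate 1 (0.35) than with GFP replicate 2. The main fit does not use the numbers. With the replicate block, feature windows gave 4 calls, without the LMNB1-DT interval chr5:126777177-126778255 (log2 fold change 9.88), and the flanks 108, 139 and 51.

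Of the named windows 13 were called with total counts only and 3 with DESeq2. Of 25 lists, 17 had a positive median, with 8 to 20 when 1 library was left out. The mitochondrial share of window counts differed by -13.6 to -9.84 percentage points without 1 library. The density ratio turned from -0.012 to 0.026 with 500 bp flanks.

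Log2 fold changes of named windows, most of them near 0 and uncalled, changed sign under some settings. With total counts only they became RNA5S8 0.064, MIR17HG 0.065, RPPH1 0.16, SCARNA17 0.016, BCYRN1 0.13, SNHG31 0.012, LMNB1-DT (126774833 to 126776694) 0.16, HOTAIRM1 0.0014, RNY4 0.068, RNY3 0.0078, RNU6ATAC 0.17. With the 50 kb flanks as an offset they became -0.0025 (NEAT1 65416557 to 65445540, log2 fold change), RNU6-1 (181231712 to 181231867) -0.063, -9.80 (LMNB1-DT 126751938 to 126776694, log2 fold change), -9.86 (LMNB1-DT 126751948 to 126776943, log2 fold change), LMNB1-DT (126776224 to 126778255) -0.64, VTRNA2-1 -0.026, and the flanks of those LMNB1-DT intervals hold the gain. With 1 library left out at a time they ranged as follows: NEAT1 -0.0044 to 0.15, RPPH1 -0.093 to 0.077, RN7SL1 -0.036 to 0.12, RNU6-9;RNU6-1 -0.028 to 0.31, BCYRN1 -0.15 to 0.12, RNU6-1 (174557942 to 174558097) -0.62 to 0.036, RNU6-1 (181231712 to 181231867) -0.33 to 0.41, LMNB1-DT (126774833 to 126776694) -0.058 to 0.024, VTRNA2-1 -0.087 to 0.12, VTRNA1-2 -0.037 to 0.14, VTRNA1-3 -0.025 to 0.089, RN7SK -0.053 to 0.12, RNY4 -0.46 to 0.067, RMRP -0.013 to 0.12, RNU6ATAC -0.15 to 0.071, RNU6-1 (141118006 to 141118161) -0.032 to 0.25. The cause was not tested.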
